A study of Mus musculus with 12 samples.

Results

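Genes encoding the subunits of the mitochondrial respiratory chain, complexes I to IV, and of the ATP synthase, complex V, were analyzed in RNA-seq libraries of MEF cells. The members were chosen by gene symbol alone, as the names of the Nduf, Sdh, Uqcr, Cox and Atp5 subunit series without pseudogene names. This gave 84 genes of the 43280 entries in the table of Control and 2MUT cells, and 73 of these 84 among the 23930 entries in the table of the 2-HG experiment. By complex they were 37 genes of complex I, 4 of complex II, 8 of complex III, 18 of complex IV and 17 counted with complex V by their names. Expression is given in RPM, each gene's reads scaled to 1000000 reads in its library, and 66 members in each table had the mean of at least 1 RPM that was required for a test, 65 of them in both.

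All libraries came from MEF cells, a fibroblast line of C57BL/6 mouse embryos (day 13.5) that became immortal on passaging alone. 2MUT cells stably expressed a cancer-associated mutant of human IDH2, tagged with 3×FLAG at its C-terminus, from the retroviral vector pMXs-puro, and Control cells carried that vector without IDH2. IDH2 is the mitochondrial isocitrate dehydrogenase, and its mutant form makes 2-HG from α-ketoglutarate. In the other experiment MEF cells received 300 μM of a membrane-permeant octyl ester of 2-HG for 24 h, 2-HG(+), or the solvent DMSO for 24 h, 2-HG(-). The labels give the DMSO treatment, whereas the study's text calls the 2-HG(-) cells non-treated. Each of the 4 groups held 3 libraries, and cells expressing wild-type IDH2 were not analysed here, so that 2MUT differs from Control both in carrying an IDH2 protein and in its mutation. Endogenous mouse Idh2, on which reads of the human transgene were not looked for, was 77.3 ± 5.54 RPM on average (± SD, n = 3) among Control libraries and 49.6 ± 6.39 RPM among 2MUT libraries, a change of -0.63 on the log2 scale (limma adjusted p = 0.00298). The study's methods speak of triplicates without saying whether the 3 libraries of a group came from separate cultures, so the p-values may measure technical spread only.

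Complexes I and II pass electrons from NADH and succinate to ubiquinone, complex III passes them on to cytochrome c, and complex IV hands them to oxygen. Complexes I, III and IV move protons across the inner membrane, and the ATP synthase lets them flow back through its membrane ring while its F1 head makes ATP. Complex II is also succinate dehydrogenase of the tricarboxylic acid cycle, the cycle to which isocitrate dehydrogenase belongs. Most subunits are encoded in the nucleus, and their promoters are known to be served by the factors NRF1, NRF2 (an ETS family protein encoded by Gabpa) and YY1, with PGC-1α (Ppargc1a) as a coactivator.

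Sequences just upstream of members described below are shown because these genes carry the results, Cox7a1 as the member that fell in both experiments, Ndufv3 and Uqcrh as members that fell in 2MUT, Atp5b as the member that moved in opposite directions, and Sdhb as a rise with 2-HG. Each runs from 150 bases before the start of the gene to the last base before it, from RefSeq on GRCm38.p6, 5′ to 3′ on the strand of the gene. Capitals mark an exact match to GCATGCGC, the core of the NRF1 motif, or to CCGGAAG or its reverse complement CTTCCGG, the core of the ETS motif.
Cox7a1, chr7:30184021-30184170, forward strand: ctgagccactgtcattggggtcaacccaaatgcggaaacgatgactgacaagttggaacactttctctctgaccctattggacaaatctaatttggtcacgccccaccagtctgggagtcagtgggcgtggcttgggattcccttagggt
Ndufv3, chr17:31519965-31520114, forward strand: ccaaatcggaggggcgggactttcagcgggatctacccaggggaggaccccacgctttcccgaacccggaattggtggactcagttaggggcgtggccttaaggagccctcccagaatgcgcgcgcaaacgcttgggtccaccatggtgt
Uqcrh, chr4:116075071-116075220, reverse strand: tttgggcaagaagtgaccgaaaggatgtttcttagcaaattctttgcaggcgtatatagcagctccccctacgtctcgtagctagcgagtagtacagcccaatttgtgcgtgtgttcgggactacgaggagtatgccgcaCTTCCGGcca
Atp5b, chr10:128083157-128083306, forward strand: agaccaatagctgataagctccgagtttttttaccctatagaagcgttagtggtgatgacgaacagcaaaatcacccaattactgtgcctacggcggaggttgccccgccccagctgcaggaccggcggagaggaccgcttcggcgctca
Sdhb, chr4:140961121-140961270, forward strand: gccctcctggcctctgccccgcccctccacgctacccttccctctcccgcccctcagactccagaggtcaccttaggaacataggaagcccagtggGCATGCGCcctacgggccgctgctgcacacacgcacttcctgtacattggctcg
The stretch of Uqcrh holds the ETS letters at base -10, and that of Sdhb the NRF1 letters at base -54. GENCODE M21 starts some of these genes further upstream than RefSeq, Cox7a1 by 27 bases, Atp5b by 34, Sdhb by 68 and Uqcrh by 1, so that the NRF1 letters of Sdhb lie within the gene by that annotation.

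A promoter of 250 bases before to 50 bases after the start was found for 66 of the 84 members. Searched on both strands, the NRF1 letters stood in 10 of these 66 promoters (15.2%) and in 3.05% of the promoters of all 27025 genes. The ETS letters stood in 16 (24.2%) against 9.93%. AAGATGGC, letters of the YY1 motif, and its reverse complement GCCATCTT stood in 9 (13.6%) against 3.19%. The last letters of CCGGAAG can also be the first of AAGATGGC, and matches to the 2 shared bases in 0 of the 66 promoters. Among the 13 promoters of members that were lower in 2MUT, the NRF1 letters stood in those of Ndufa6 and Uqcrc1. The ETS letters stood in those of Sdhd and Uqcrh, and the YY1 letters in those of Atp5j2 and Ndufs4. A match describes letters and not a bound site, and its absence says only that these letters are not in the window.

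The libraries of Control and 2MUT held between 6472439 and 7313602 reads on genes and those of the 2-HG experiment between 14959318 and 18363768, so 3 reads, taken as the limit of detection, correspond to 0.410 to 0.464 RPM and 0.163 to 0.201 RPM, respectively. The Ion AmpliSeq kit amplifies a short target in each transcript, so levels are compared between groups and not between genes. Of 7 fibroblast markers, 6 exceeded 1 RPM in every group, S100a4 being under 1 RPM or not listed, and their summed level was 10831 to 11922 RPM in Control, 7514 to 8118 RPM in 2MUT, 19698 to 21235 RPM in 2-HG(-) and 13530 to 14755 RPM in 2-HG(+). This marker level was lower in 2MUT and in 2-HG(+) than in their controls, and its part in the results below was not tested. The 5 adipocyte markers, of which Fabp4 exceeded 1 RPM in every group while Adipoq, Plin1, Cidec and Ucp1 did not in any, summed to 56.1 to 61.8 RPM in Control, 43.7 to 53.4 RPM in 2MUT, 5.55 to 8.82 RPM in 2-HG(-) and 2.51 to 3.25 RPM in 2-HG(+). Of the blood cell markers, Cd68 exceeded 1 RPM and Ptprc and, where listed, the globin genes did not, and they summed to 6.98 to 12.4 RPM in Control, 6.33 to 6.88 RPM in 2MUT, 11.0 to 13.4 RPM in 2-HG(-) and 7.67 to 9.61 RPM in 2-HG(+). Both sums were likewise lower in 2MUT and in 2-HG(+), without overlap, and their part in the falls of members, Cox7a1 included, was not tested. Endothelial markers summed to at most 2.94 RPM and epithelial markers to at most 0.6 RPM, with Epcam at 0. In such bulk libraries, fewer cells of a kind and less RNA per cell cannot be told apart. Control replicate 3 and 2-HG(+) replicate 2 stood apart for more genes than the other libraries. A value under 0.6 times the lowest of the other 5 libraries was found for 109 of 7859 genes of at least 10 RPM (1.39%) in Control replicate 3 and for 93 of 7856 genes (1.18%) in 2-HG(+) replicate 2, against at most 32 genes in any other library.

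In cells expressing mutant IDH2, transcripts for respiratory chain and ATP synthase subunits were more often lower than higher. Of 66 members tested, 16 were lower and 2 were higher in 2MUT than in Control (limma with Benjamini-Hochberg adjustment over all 11065 genes, adjusted p under 0.05), and 48 did not pass. Among all genes tested 17.3% were called lower and 16.5% higher, against 24.2% and 3.03% of the members. The median log2 fold change of the members was -0.15, beside 0.01 for all genes. Of the 2 higher members, Uqcrq and Cox6c, the latter rests on few reads. In complex III 4 of 8 members were lower and in complex V 5 of 12, which became 2 of 12 without 2MUT replicate 2, without the trend and with the unmoderated test. In complex I 5 of 31 were lower (16.1%, near the 17.3% of all genes). Its log2 fold changes were negative for 15 members and positive for 16, with a median of 0.02. In complex II 1 of 4 was lower and in complex IV 1 of 11. Under the alternatives up to 3 were lower in complex II and up to 2 in complex IV. Among the 23 tested members listed as catalytic core or other defining subunits, 8 were lower and 15 did not pass. All 3 2MUT libraries lay below all 3 Control libraries for 24 members and above for 4, where 24.0% and 23.5% of all genes did so. Leaving out Control replicate 3 gave 21 lower and 4 higher members with a median of -0.23, and leaving out Control replicate 2 gave 15 lower and 6 higher members with a median of -0.09.

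**Figure D1:**
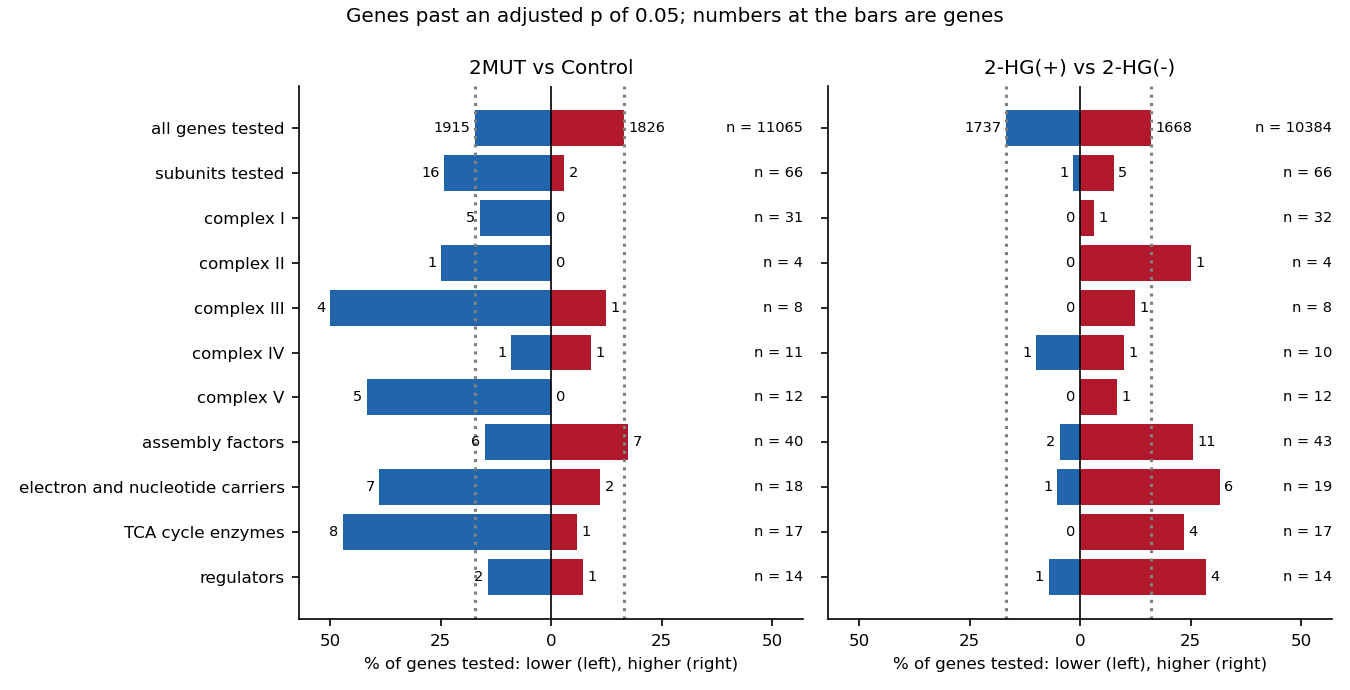
Share of the genes tested that passed an adjusted p of 0.05 in each comparison, lower to the left and higher to the right, for all genes, the subunits tested, each complex and the related lists. The numbers at the bars count genes, the number tested stands at the right, and the dotted lines mark the share over all genes. Complexes III and V reach 4 of 8 and 5 of 12 lower genes in 2MUT, and 1 subunit is lower with 2-HG.

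Complex I oxidizes NADH through a peripheral arm of core iron-sulfur and flavin subunits surrounded by accessory subunits. Ndufv3, an accessory subunit of the NADH-oxidizing arm, gave 491, 474 and 460.4 RPM in Control and 303, 269.7 and 275 RPM in 2MUT. The 2 groups were separated by more than the range within either, with a log2 fold change of -0.75 (SE 0.09, limma adjusted p = 9.99e-05). Ndufs4, an accessory subunit of the peripheral arm whose loss is known to impair complex I, gave 97.95, 87.04 and 97.2 RPM in Control and 65.05, 66.3 and 64.3 RPM in 2MUT. The 3 2MUT libraries differed by little and lay below Control, with a log2 fold change of -0.52 (SE 0.10, limma adjusted p = 0.003). Ndufa6 and Ndufb11, accessory subunits, were lower as well, with log2 fold changes of -0.47 (adjusted p = 0.00399) and -0.42 (adjusted p = 0.00254) and no overlap between groups.

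Ndufv2, an iron-sulfur core subunit of complex I, did not pass. It gave 10.7, 13.7 and 10.5 RPM in Control and 8.81, 7.76 and 8.26 RPM in 2MUT, and its change was -0.44 (95% interval -0.83 to -0.05, limma adjusted p = 0.0806). Ndufv1, which binds NADH and FMN, had -0.27 (95% interval -0.52 to -0.02, limma adjusted p = 0.0938), and passed without Control replicate 3, with -0.35 (limma adjusted p = 0.0348). The quinone-side core subunits Ndufs3, Ndufs7 and Ndufs8 had log2 fold changes of 0.02, -0.02 and 0.03, each with a 95% interval between -0.23 and 0.28. So the fall in Ndufv3 stood beside these subunits of the same arm, whose changes were near 0. Among accessory subunits, Ndufb3, Ndufc1 and Ndufa3 had positive log2 fold changes of 0.26, 0.30 and 0.43 that did not pass (limma adjusted p = 0.061, 0.0819 and 0.105). Ndufa4, counted here by its name although its protein is known as a subunit of complex IV, had 0.29 (95% interval 0.06 to 0.53, limma adjusted p = 0.0567). Without Control replicate 2, Ndufa4 (limma adjusted p = 0.0211) and Ndufc1 (0.041) passed, and without Control replicate 3 Ndufc1 (0.0487) and Ndufa3 (0.0456).

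Complex II has only 4 subunits, and all 4 had negative log2 fold changes in 2MUT. Sdhd, a membrane anchor, passed the test. It gave 359, 341 and 309 RPM in Control and 255, 251 and 250.02 RPM in 2MUT, with all 2MUT libraries below Control and a log2 fold change of -0.41 (SE 0.09, limma adjusted p = 0.00512). The other anchor, Sdhc, had -0.28 (95% interval -0.50 to -0.06, limma adjusted p = 0.0534). The iron-sulfur subunit Sdhb had -0.31 (95% interval -0.56 to -0.06, limma adjusted p = 0.0577), and the flavoprotein Sdha -0.13 (95% interval -0.37 to 0.12, limma adjusted p = 0.416). Sdhb passed when Control replicate 3 was left out, with -0.39 (limma adjusted p = 0.0164), and Sdhc when Control replicate 2 was left out, with -0.36 (limma adjusted p = 0.022).

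In complex III the falls included the hinge protein Uqcrh, both core proteins and the Rieske iron-sulfur protein, which takes electrons from ubiquinol. Uqcrh gave 494, 337 and 381 RPM in Control and 269, 244 and 243 RPM in 2MUT. Control replicate 1 was highest and no 2MUT library reached the lowest Control value, with a log2 fold change of -0.66 (SE 0.13, limma adjusted p = 0.00258). The core protein Uqcrc2 gave 79.5, 76.5 and 92.3 RPM in Control and 49.1, 51.1 and 57.7 RPM in 2MUT, again without overlap, and a log2 fold change of -0.64 (SE 0.12, limma adjusted p = 0.00201). The other core protein, Uqcrc1, fell by less, with 198, 199.9 and 194 RPM in Control and 163, 162 and 163 RPM in 2MUT and a log2 fold change of -0.28 (SE 0.09, limma adjusted p = 0.0299). The Rieske protein Uqcrfs1 had a log2 fold change of -0.46 (adjusted p = 0.00423). Against these, Uqcrq, a small subunit beside the cytochrome b core, was higher. It gave 121, 176 and 149.9 RPM in Control and 194, 195 and 221 RPM in 2MUT, and the 2MUT values lay above the highest Control value with a log2 fold change of 0.46 (SE 0.13, limma adjusted p = 0.0202). Uqcrq did not pass without Control replicate 1 (limma adjusted p = 0.0547) or 2MUT replicate 3 (0.0827). Uqcrc1 did not pass without Control replicate 2 or any 1 of the 2MUT libraries, with adjusted p of 0.0614 to 0.0924.

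Complex IV held the largest fall among the members tested. Cox7a1 encodes the heart and muscle form of subunit 7a of cytochrome c oxidase, the form that replaces the more general Cox7a2 in those tissues. It gave 10.5, 11.4 and 11.3 RPM in Control and 3.4, 2.49 and 3.44 RPM in 2MUT. Every Control value was above every 2MUT value, the mean in 2MUT was 0.281 times that in Control, and the test gave a log2 fold change of -1.56 (SE 0.19, limma adjusted p = 0.000142). Because 1 is added before the logarithm, this log2 fold change understates the change of so low a gene. Cox7a1 is among the genes that the study listed from these same libraries, so its fall is not independent evidence. Muscle markers summed to between 2.22 and 6.59 RPM in these 2 groups, with Myod1, Myog and Ckm at 0 and 1 or 2 of the 8 markers above 1 RPM (Des in both groups, Tnnt2 in 2MUT), and their part in the fall of Cox7a1 was not tested. The general form Cox7a2 was measured at 2.66, 1.57 and 2.19 RPM in Control and 2.01, 1.76 and 0.275 RPM in 2MUT and did not pass, with -0.50 (95% interval -1.24 to 0.24, limma adjusted p = 0.276). Without 2MUT replicate 3, which was under the limit of detection, its change was -0.11, and with other libraries left out it was -0.73 to -0.38.

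Cox6c was listed at 1.92, 2.56 and 0.273 RPM in Control and 6.64, 4.98 and 5.37 RPM in 2MUT. The 2MUT values lay above Control, with a log2 fold change of 1.48 (SE 0.35, limma adjusted p = 0.00689), but the Control values include 1 library under the limit of detection. The subunits Cox4i1, Cox5a and Cox5b, which line the catalytic core of cytochrome c oxidase, did not pass. Their log2 fold changes were -0.24 (95% interval -0.46 to -0.02, limma adjusted p = 0.0868), -0.09 (95% interval -0.56 to 0.39, limma adjusted p = 0.788) and 0.31 (95% interval -0.05 to 0.67, limma adjusted p = 0.166). Of the general isoforms Cox6a1, Cox6b1, Cox7b and Cox8a, Cox6a1 came nearest to the threshold with -0.32 (95% interval -0.59 to -0.06, limma adjusted p = 0.058). It passed without Control replicate 3, with -0.43 (limma adjusted p = 0.00887), without 2MUT replicate 1, with -0.41 (0.0467), and with DESeq2. Cox5b passed without Control replicate 2, with 0.50 (limma adjusted p = 0.0218), and had 0.12 without Control replicate 1. The others had 0.13, -0.14 and -0.14. Cox7b2, a paralogue of Cox7b, was close to the 1 RPM limit and had -0.15.

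The 12 tested members with Atp5 names, which include the complex I assembly factor Atp5sl, had negative log2 fold changes in 2MUT, and 5 passed. Those of Atp5d, Atp5e and Atp5o, which did not pass, turned positive under 3, 1 and 1 of the 17 alternatives. Atp5j2, subunit f of the membrane part, gave 800.5, 911 and 649 RPM in Control and 592, 540.4 and 521 RPM in 2MUT. No 2MUT value reached the lowest Control value, with a log2 fold change of -0.50 (SE 0.12, limma adjusted p = 0.00778). Atp5g3 is 1 of 3 genes for subunit c, the building block of the proton-driven ring, and was the only one of the 3 above 1 RPM. It gave 426, 488 and 416 RPM in Control and 353, 327 and 311 RPM in 2MUT, without overlap, and a log2 fold change of -0.42 (SE 0.10, limma adjusted p = 0.00628). The catalytic subunit β, Atp5b, gave 556, 623 and 664 RPM in Control and 483, 459 and 491 RPM in 2MUT. All 2MUT values were below Control, with a log2 fold change of -0.36 (SE 0.09, limma adjusted p = 0.0114). The subunits α and γ of the same head followed, Atp5a1 with -0.34 (adjusted p = 0.0122) and Atp5c1 with -0.30 (adjusted p = 0.0357), in each case without overlap. The small head subunits δ and ε and the stalk subunit OSCP had log2 fold changes of -0.04 (95% interval -0.44 to 0.36, limma adjusted p = 0.892) for Atp5d, -0.10 (95% interval -0.40 to 0.19, limma adjusted p = 0.578) for Atp5e and -0.10 (95% interval -0.41 to 0.21, limma adjusted p = 0.607) for Atp5o. Without 2MUT replicate 2, Atp5a1 (limma adjusted p = 0.0669) and Atp5b (0.0537) no longer passed, and Atp5c1 passed without Control replicate 1 but not without any other library (0.0633 to 0.11).

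**Figure D2:**
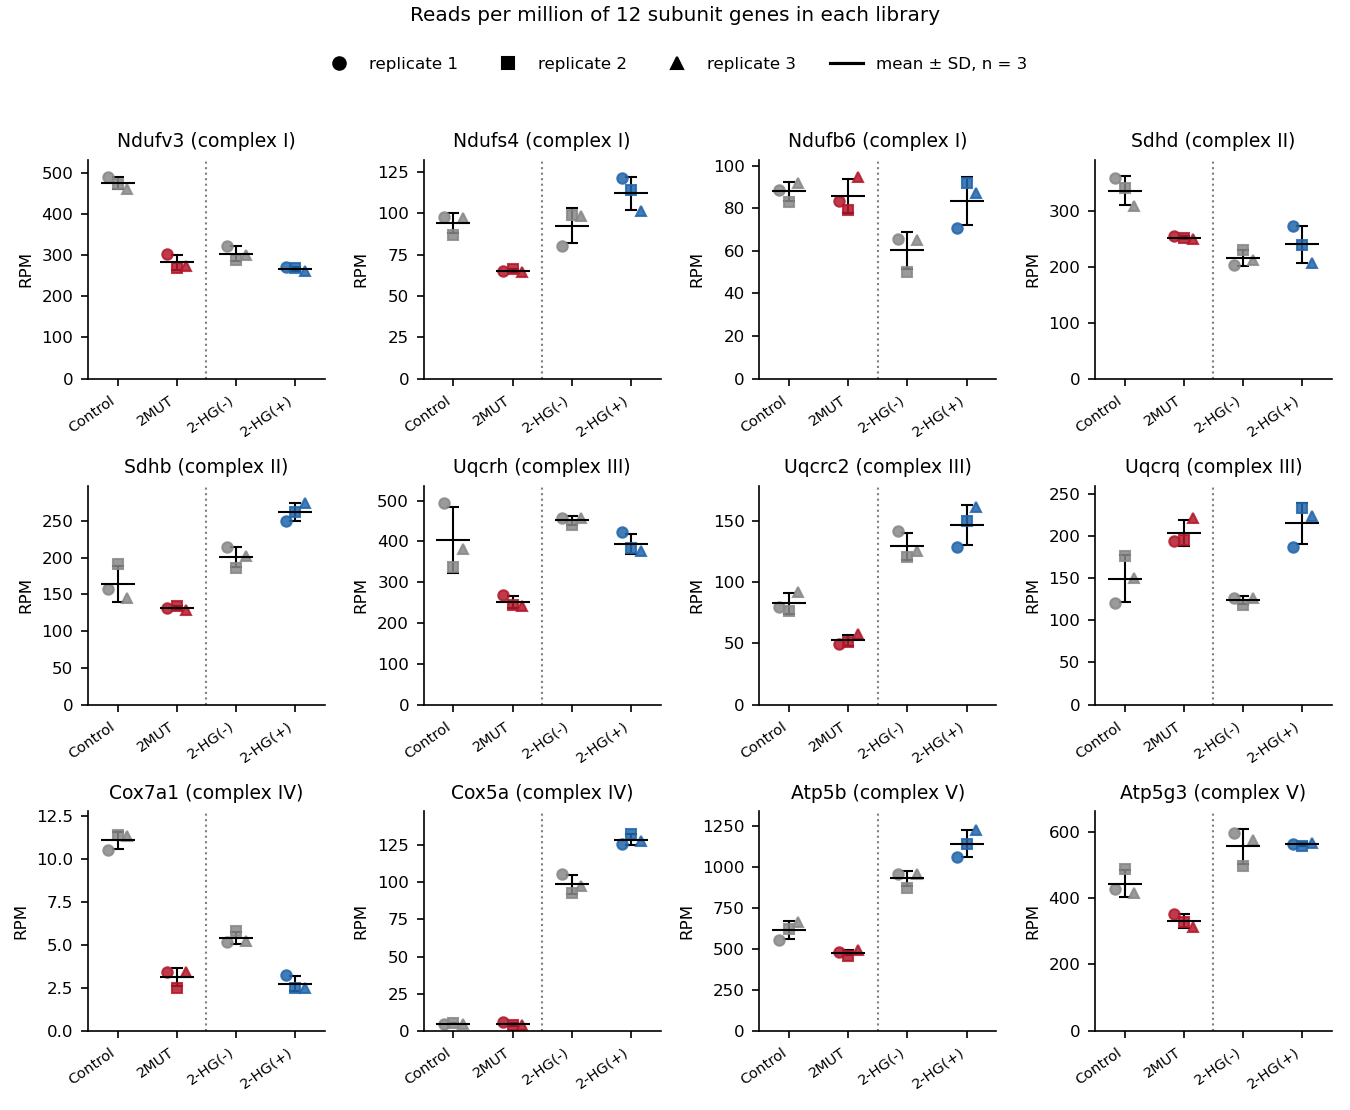
Level of 12 subunit genes in every library, in RPM on axes that start at 0, with the mean ± SD of 3 libraries. The dotted line parts the 2 tables, which are not compared with each other. Cox7a1 lies between 10.5 and 11.4 RPM in Control and between 2.49 and 3.44 RPM in 2MUT, and is lower in every 2-HG(+) library than in 2-HG(-).

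With 2-HG most of the subunits did not pass the test, and all but 1 of those that passed were higher. Of 66 members tested, 5 were higher, 1 was lower and 60 did not pass (limma with Benjamini-Hochberg adjustment over all 10384 genes). Over all genes 16.1% were called higher and 16.7% lower, against 7.58% and 1.52% of the members. The median log2 fold change of the members was 0.08 and that of all genes -0.02. At an unadjusted p under 0.05 there were 10 members (15.2%, beside 43.2% of all genes), where 30 members reached that level in 2MUT (45.5%, beside 44.2%). All 3 2-HG(+) libraries lay above all 3 2-HG(-) libraries for 12 members and below for 4, beside 22.2% and 24.1% of all genes. Without 2-HG(+) replicate 2, 2 members were higher, and without 2-HG(-) replicate 2 or replicate 3 there were 3.

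The largest rise was in Uqcrq of complex III. It gave 127, 118 and 127 RPM in 2-HG(-) and 187, 233 and 223 RPM in 2-HG(+). The groups did not overlap and the mean rose to 1.73 times that of 2-HG(-), with a log2 fold change of 0.78 (SE 0.11, limma adjusted p = 0.000535). No other tested member of complex III passed, and the core proteins Uqcrc1 and Uqcrc2 and the Rieske protein Uqcrfs1 had log2 fold changes of 0.18, 0.18 and 0.08. The hinge protein Uqcrh gave 458, 439 and 457 RPM in 2-HG(-) and 423, 384 and 376 RPM in 2-HG(+). All 2-HG(+) values lay below 2-HG(-), but the change of -0.20 (95% interval -0.40 to 0.01, limma adjusted p = 0.126) did not pass.

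In complex IV, Cox7a1 was lower, with 5.17, 5.82 and 5.22 RPM in 2-HG(-) and 3.24, 2.46 and 2.48 RPM in 2-HG(+). The groups did not overlap, the mean in 2-HG(+) was 0.505 times that in 2-HG(-), and the test gave a log2 fold change of -0.79 (SE 0.15, limma adjusted p = 0.00306). The general form Cox7a2 had 0.18 (95% interval -0.23 to 0.59, limma adjusted p = 0.479). In this experiment too Myod1 and Ckm were at 0, and muscle markers summed to 3.08 to 4.79 RPM in 2-HG(-) and 2.98 to 4.51 RPM in 2-HG(+). Des exceeded 1 RPM in both groups and Acta1 in 2-HG(-) but not in 2-HG(+), and their part in the fall of Cox7a1 was not tested. Cox5a, a subunit on the matrix side of the catalytic core, gave 106, 92.9 and 97.4 RPM in 2-HG(-) and 126, 133 and 128 RPM in 2-HG(+). Each 2-HG(+) value was above each 2-HG(-) value, with a log2 fold change of 0.38 (SE 0.09, limma adjusted p = 0.0117). Without 2-HG(+) replicate 2 its adjusted p was 0.0567. Cox4i1, Cox5b, Cox6b1, Cox7b and Cox8a had log2 fold changes between -0.14 and 0.19 and did not pass. Cox6c, higher in 2MUT, had 0.16 (95% interval -0.27 to 0.59, limma adjusted p = 0.555).

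Sdhb of complex II, the iron-sulfur subunit of succinate dehydrogenase, gave 214, 187 and 202 RPM in 2-HG(-) and 250.5, 263 and 274 RPM in 2-HG(+). The 3 values with 2-HG were above the 3 without it, with a log2 fold change of 0.39 (SE 0.09, limma adjusted p = 0.0115). The other subunits of complex II, Sdha, Sdhc and Sdhd, had 0.12, -0.002 and 0.15 and did not pass. Ndufb6, an accessory subunit in the membrane arm of complex I, gave 65.5, 50.002 and 65.1 RPM in 2-HG(-) and 70.8, 91.99 and 87.4 RPM in 2-HG(+). The lowest value with 2-HG was above the highest without it, with a log2 fold change of 0.47 (SE 0.14, limma adjusted p = 0.0308). Leaving out either of 2-HG(-) replicates 2 and 3 or of 2-HG(+) replicates 2 and 3 lost the call of Ndufb6, with adjusted p of 0.053 to 0.11. Among the core subunits of complex I, Ndufv2 had the largest positive change that did not pass, 0.25 (95% interval 0.04 to 0.46, limma adjusted p = 0.0728). Ndufv1, Ndufs3, Ndufs7 and Ndufs8 had 0.14, 0.17, -0.09 and -0.04, and Ndufa4 had -0.06.

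Of the ATP synthase, only Atp5b passed with 2-HG. It gave 959.8, 876 and 959 RPM in 2-HG(-) and 1063, 1139.8 and 1227 RPM in 2-HG(+). The 2-HG(+) values were the higher in every library, with a log2 fold change of 0.29 (SE 0.10, limma adjusted p = 0.0475), just under the threshold. Atp5b passed without 2-HG(+) replicate 1 but not without any other library (adjusted p 0.0787 to 0.143). The subunits α and γ, Atp5a1 and Atp5c1, had 0.04 (95% interval -0.20 to 0.28, limma adjusted p = 0.79) and 0.16 (95% interval -0.06 to 0.37, limma adjusted p = 0.237). Atp5d, Atp5e, Atp5o and Atp5g3 had log2 fold changes of 0.06, 0.21, 0.17 and 0.02. Atp5sl, named after the ATP synthase although its protein is known as an assembly factor of complex I, had -0.43 (95% interval -0.82 to -0.04, limma adjusted p = 0.0872).

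**Figure D3:**
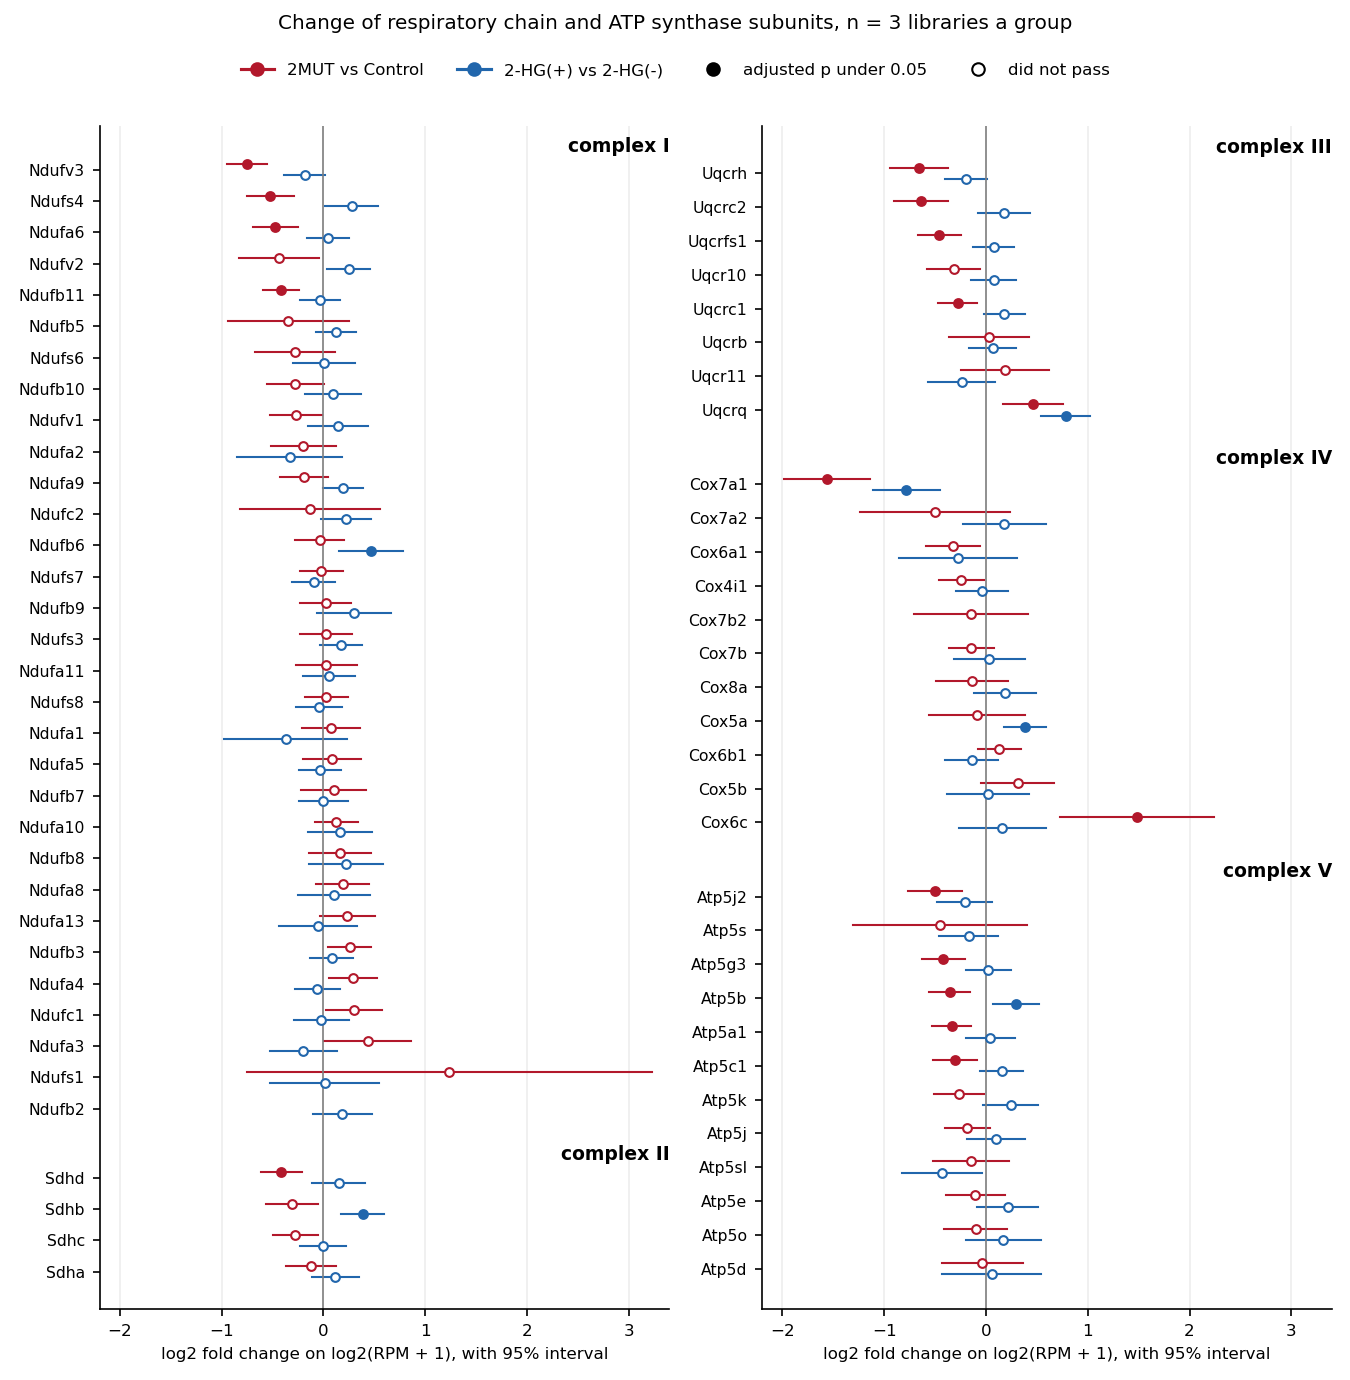
Log2 fold change of the tested members reported here, each with its 95% interval, 2MUT against Control in red and 2-HG(+) against 2-HG(-) in blue, by complex and in the order of the change in 2MUT. Filled points passed an adjusted p of 0.05. The 12 points under complex V in 2MUT, Atp5sl among them, lie left of 0, and the wide interval of Ndufs1 comes with 1 Control library at 9.57 RPM.

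The 2 experiments were then set side by side for the 65 members tested in both, and the difference between the changes was tested as a contrast over all 12 libraries. Calls in both experiments were found for 3 members, Uqcrq higher in both, Cox7a1 lower in both, and Atp5b lower in 2MUT and higher with 2-HG. By sign alone, 31 members were negative in 2MUT and positive with 2-HG, 10 were the other way round, 12 were positive in both and 12 negative in both. The change in 2MUT was the more negative for 20 members and the more positive for 1, Cox6c (limma with Benjamini-Hochberg adjustment over 9594 genes). Among all genes 19.5% and 19.9% were called in these directions. Large differences, 2MUT minus 2-HG, were in Uqcrc2, with -0.82 (SE 0.16, limma adjusted p = 0.00144), and Ndufs4, with -0.80 (SE 0.15, limma adjusted p = 0.00102).

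Atp5b differed by -0.65 (SE 0.13, limma adjusted p = 0.00144), its own changes being -0.36 in 2MUT and 0.29 with 2-HG. Sdhb differed by -0.69 (SE 0.15, limma adjusted p = 0.00225), with -0.31 in 2MUT, which did not pass, and 0.39 with 2-HG. Ndufv2 passed in neither comparison, yet its changes of -0.44 and 0.25 differed by -0.69 (SE 0.16, limma adjusted p = 0.00395). Its mean was 11.6 RPM in Control but 393 RPM in 2-HG(-), so the 2 changes were measured at listed levels far apart. Cox7a1 was lower in both, and the fall in 2MUT was the larger, with a difference of -0.78 (SE 0.22, limma adjusted p = 0.0121). The rises of Uqcrq, 0.46 and 0.78, differed by -0.32 with a 95% interval of -0.71 to 0.07 (limma adjusted p = 0.186), which does not show that they are alike. Cox5a, called higher with 2-HG, differed by -0.47 (adjusted p = 0.0712) and so was not shown to differ between the experiments. Without 2MUT replicate 1 this difference of Cox5a passed (limma adjusted p = 0.0118), as did that of Uqcrq without Control replicate 1 (0.0399). Libraries left out in turn gave 15 to 21 members with the more negative change, and 15 of the 20 kept that call without any 1 library. Of the other 5, Ndufa9 kept it in 8 of the 12 fits that left 1 library out, Ndufb6 and Atp5a1 in 5 and Uqcrh and Atp5k in 4, with adjusted p of up to 0.0599, 0.109, 0.0987, 0.0888 and 0.0819. The difference of Uqcrh also did not pass with TMM or median-of-ratios scaling. Cox6c lost it without 2MUT replicate 1 or any 1 of replicates 1 and 2 of 2-HG(-) and 2-HG(+), with adjusted p of 0.053 to 0.0635.

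**Figure D4:**
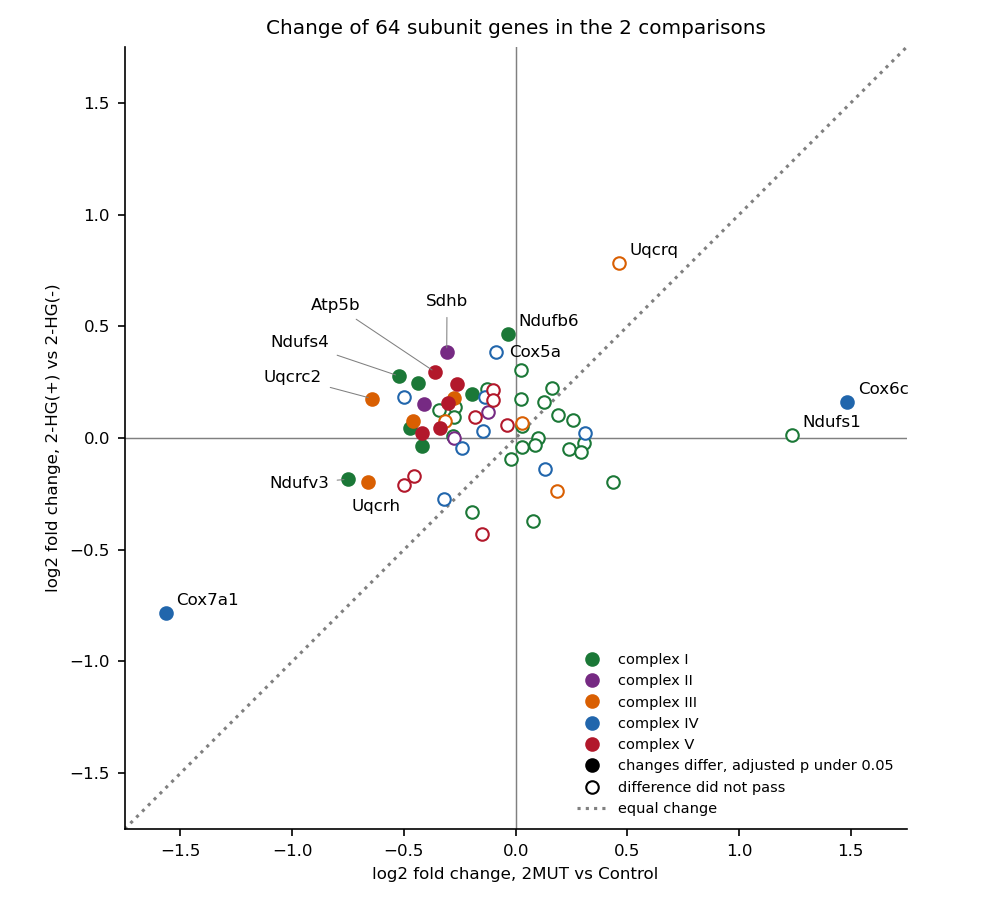
Log2 fold change in 2MUT against Control (horizontal) and in 2-HG(+) against 2-HG(-) (vertical) for 64 of the members tested in both tables, colored by complex. Filled points are the 20 of these whose changes differed between the experiments, and the dotted line marks equal change. Cox7a1 lies alone at the lower left (-1.56 and -0.79) and Uqcrq at the upper right (0.46 and 0.78).

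Members that could not be tested were 18 in the table of Control and 2MUT and 7 in that of the 2-HG experiment. Of the 18, 11 were listed only in the former table, Atp5f1, Atp5g1, Atp5g2, Atp5h, Atp5l, Cox7a2l, Cox7c, Ndufa12, Ndufa7, Ndufb4 and Ndufs5, at 0 to 0.570 RPM in any library. Several of these, such as subunits b, d and c of the ATP synthase, belong to complexes that every respiring cell holds, so a value near 0 is given only as listed. The tissue-restricted isoforms Cox4i2 (lung), Cox6a2 and Cox8b (heart and muscle), Cox6b2 and Cox8c (testis) were listed at no more than 0.878 RPM in 2MUT and Control and 0.196 RPM with and without 2-HG. Ndufa4l2, a paralogue of Ndufa4 known to rise in hypoxia, reached at most 0.293 RPM in the former experiment. With 2-HG it gave 0.054, 0.401 and 0.12 RPM in 2-HG(-) and 0.529, 0.481 and 0.784 RPM in 2-HG(+), under the limit for a test. For 8 of 67 members of at least 1 RPM in either control group, the 2-HG(-) mean was at least 4-fold the Control mean (11.9%, against 11.6% of all such genes), and Cox5a was at 4.64 RPM in Control but 98.7 RPM in 2-HG(-). The tables were normalized separately and list different entries, so these levels are given side by side only.

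Among members of at least 10 RPM, 1 library lay under 0.6 times the lowest of the other 5 for 4 members. Ndufs1, the largest iron-sulfur subunit of complex I, gave 256, 233 and 9.57 RPM in Control and 226, 182 and 201 RPM in 2MUT. Control replicate 3 was 19.0-fold below the nearest library, and the log2 fold change of 1.24 (SE 0.91, limma adjusted p = 0.316) became -0.27 (SE 0.12, limma adjusted p = 0.0827) without it. In 2-HG(+), replicate 2 was the low one for 3 other members. Ndufa1, an accessory subunit of complex I, was at 437, 187 and 416 RPM in 2-HG(+) and its log2 fold change moved from -0.37 to 0.02 without that library. Ndufa2, also accessory, was at 273, 156 and 322 RPM and moved from -0.33 to -0.02. Cox6a1 was at 996, 462 and 1028 RPM and moved from -0.27 to 0.10. None of these passed with or without the library, their limma adjusted p without it being 0.908, 0.923 and 0.584. Ndufs1 was also lowest in 2-HG(+) replicate 2, with 299, 391 and 334 RPM in 2-HG(-) and 456, 218 and 404 RPM in 2-HG(+), and its log2 fold change was 0.01 with and 0.34 without that library (limma adjusted p = 0.112 without it).

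**Figure D5:**
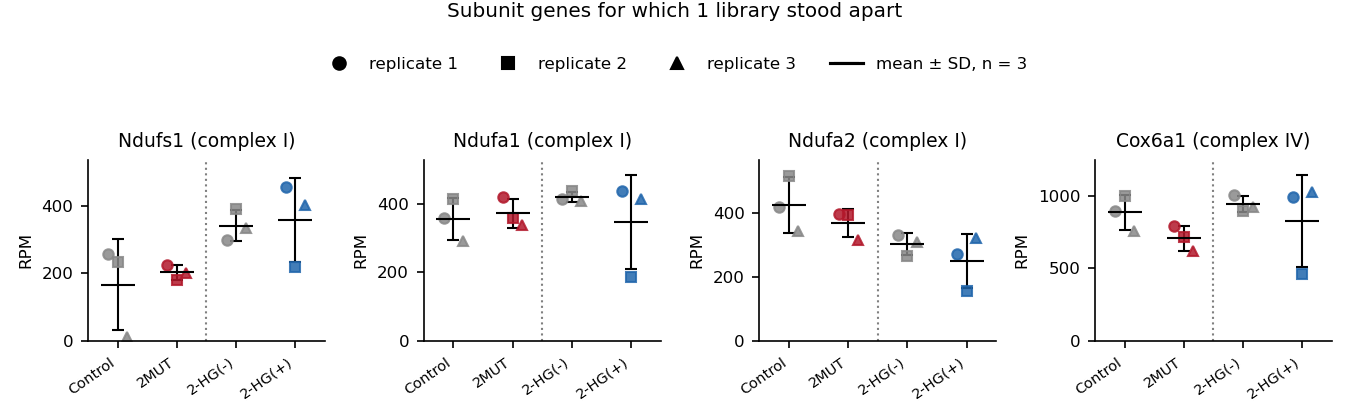
Level in RPM of the 4 members of at least 10 RPM for which 1 library stood apart, with the mean ± SD of 3 libraries and axes that start at 0. Ndufs1 is at 9.57 RPM in Control replicate 3, and Ndufa1, Ndufa2 and Cox6a1 are lowest in 2-HG(+) replicate 2, at 187, 156 and 462 RPM.

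Genes that build, feed or regulate the chain were taken from lists outside the membership rule. Among 40 tested assembly factors of 51 listed, 7 were higher (17.5%) and 6 lower (15.0%) in 2MUT, near the 16.5% and 17.3% of all genes. With 2-HG 11 of 43 were higher and 2 lower, or 25.6% and 4.65% beside 16.1% and 16.7% of all genes. In 2MUT the largest change was in Ndufaf5, an assembly factor of complex I, which was 20.4 ± 4.77 RPM on average among Control libraries and 9.95 ± 1.71 RPM among 2MUT libraries, a change of -0.96 on the log2 scale (limma adjusted p = 0.00351). Bcs1l, which inserts the Rieske protein, was 40.1 ± 1.2 RPM on average among Control libraries and 21.3 ± 4.27 RPM among 2MUT libraries, a change of -0.90 on the log2 scale (limma adjusted p = 0.00119). Uqcc2, an assembly factor of complex III, was higher, with 188 ± 15.8 RPM on average among Control libraries and 339.7 ± 21.1 RPM among 2MUT libraries, a change of 0.85 on the log2 scale (limma adjusted p = 8.94e-05). With 2-HG, Ndufaf4 and Ndufaf6, both for complex I, rose by log2 fold changes of 0.96 and 0.81, and Tmem126b, also for complex I, fell by 0.78 on the log2 scale (limma adjusted p = 0.00121, 0.00152 and 0.00267).

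Of the tricarboxylic acid cycle enzymes and pyruvate dehydrogenase subunits, 8 of 17 tested were lower and 1 was higher in 2MUT (47.1% and 5.88%, beside 17.3% and 16.5% of all genes), with a median log2 fold change of -0.30. Pdha1, a subunit of pyruvate dehydrogenase, was 1875 ± 289 RPM on average among Control libraries and 999.8 ± 34.5 RPM among 2MUT libraries, a change of -0.90 on the log2 scale (limma adjusted p = 0.000113). Fumarate hydratase Fh1 was 115 ± 12.8 RPM on average among Control libraries and 63.5 ± 1.42 RPM among 2MUT libraries, a change of -0.84 on the log2 scale (limma adjusted p = 0.000256). Idh2, given above, had the next largest change. With 2-HG 4 of 17 were higher (23.5%, beside 16.1% of all genes) and 13 did not pass, with a median of 0.17, and the largest rises were in Idh3a (0.71), Dld (0.45) and Idh2 (0.43). The call of Idh2 with 2-HG was lost without 2-HG(-) replicate 3 (limma adjusted p = 0.0547) and without 2-HG(+) replicate 2 (0.0518).

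Electron carriers, ubiquinone synthesis, nucleotide carriers and uncoupling proteins numbered 18 tested in 2MUT, 2 higher and 7 lower (11.1% and 38.9%, beside 16.5% and 17.3% of all genes). With 2-HG they were 19, with 6 higher and 1 lower (31.6% and 5.26%, beside 16.1% and 16.7%). Ucp2, an uncoupling protein, was 774 ± 65.4 RPM on average among Control libraries and 502 ± 11.6 RPM among 2MUT libraries, a change of -0.62 on the log2 scale (limma adjusted p = 0.000363). Coq7, an enzyme of ubiquinone synthesis, rose to a log2 fold change of 1.15. Aox1, in the mouse an aldehyde oxidase and no carrier of the chain, was in this list by its symbol, and changed by 1.16 in 2MUT and by -1.94 with 2-HG on the log2 scale. It was 1 of the 2 higher genes in 2MUT and the 1 lower gene with 2-HG. Cyc1, cytochrome c1 of complex III, which the symbol rule did not take in, was 203 ± 64.6 RPM on average among 2-HG(-) libraries and 331 ± 48.4 RPM among 2-HG(+) libraries, a change of 0.75 on the log2 scale (limma adjusted p = 0.0294), and Pdss1, an enzyme of ubiquinone synthesis, rose by 0.96. The call of Cyc1 was lost without 2-HG(-) replicate 3 (limma adjusted p = 0.0531), without 2-HG(+) replicate 1 (0.0622) and without 2-HG(+) replicate 3 (0.0777).

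Of 14 tested regulators of mitochondrial gene expression, 1 was higher and 2 were lower in 2MUT (7.14% and 14.3%, beside 16.5% and 17.3% of all genes). With 2-HG 4 were higher and 1 lower (28.6% and 7.14%, beside 16.1% and 16.7%). Ppargc1a, the coactivator PGC-1α, was lower in both experiments, with 87.1 ± 4.64 RPM on average among Control libraries and 67.2 ± 5.72 RPM among 2MUT libraries, a change of -0.37 on the log2 scale (limma adjusted p = 0.0245), and 34.7 ± 2.73 RPM on average among 2-HG(-) libraries and 19.7 ± 2.8 RPM among 2-HG(+) libraries, a change of -0.79 on the log2 scale (limma adjusted p = 0.0017). The call of Ppargc1a in 2MUT was lost without Control replicate 2 (limma adjusted p = 0.0676) and without 2MUT replicate 2 (0.11). Its relative Ppargc1b had a log2 fold change of -1.27 in 2MUT (limma adjusted p = 0.00586), and Gabpa, a subunit of NRF2, 0.79. Ppargc1b rests on few reads, with 3.94 ± 1.58 RPM on average among Control libraries and 0.983 ± 0.276 RPM among 2MUT libraries. With 2-HG the largest rises were in Myc (0.80) and Lrpprc (0.61), a protein that binds mitochondrial mRNAs. The factors Nrf1 and Yy1 did not pass in either experiment, with changes of -0.11 and -0.03 (2MUT) and of 0.02 and -0.17 (2-HG). The 13 subunits encoded by mitochondrial DNA were listed in the table of Control and 2MUT alone, where 1 of the 13 reached 1 RPM, so these subunits were not analysed here.

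Of the 84 symbols, 83 were found in GENCODE M21, on 19 chromosomes with at most 8 members on one, chromosome 7. Cox7a1 lies on chromosome 7 from 30184144 to 30186078 and Uqcrq on chromosome 11 from 53427922 to 53430831, both as protein-coding genes of GRCm38. The median GC content of the longest annotated transcript was 50.3% for the tested members. Over 65 members, GC content and log2 fold change had Pearson correlations of -0.10 in 2MUT and -0.19 with 2-HG, given as a description, since these genes share libraries and depth.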

How the data were processed

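Per the labels, RNA-seq was carried out on 12 libraries of MEF cells, 3 in each of Control, 2MUT, 2-HG(-) and 2-HG(+). The authors used TMAP to align Ion AmpliSeq reads to the kit's mouse reference and deposited RPM, 1 table per experiment. How the targets lie in the genome was not given in the sources used here. Whole reads were recovered from RPM for 100% of the values within 0.05 reads. Changes were tested within each table by limma (version 3.58.1, R version 4.3.3), fitted to log2(RPM + 1) and moderated along the mean-variance trend, where a gene averaged 1 RPM or more, with Benjamini-Hochberg adjustment over all genes (threshold 0.05, two-sided), and read off for the members. A fold change on this scale understates that of low genes. Differences between experiments were a limma contrast over the 12 libraries. Alternatives were log2(RPM + 0.1), no filter or 10 RPM, quantile, median-of-ratios and TMM scaling, no trend, an unmoderated test, a replicate block, each library left out, and edgeR 4.0.16 and DESeq2 1.42.0 on the recovered reads. Genes were named as the 5 largest non-overlapping rises and falls per comparison, the isoforms, the core subunits and the 3 largest changes of each list; Ndufa1, Ndufa2, Ndufb3, Ndufc1, Ndufa3 and Atp5sl, and the smaller changes of Ndufs4, Ndufa6, Ndufa9, Ndufb11, Atp5j2, Atp5k and the factors Nrf1 and Yy1, were added after their values were seen. The values of 1 member are not reported here, though it stays in the counts. Members and lists were chosen with earlier results of these data known. Promoters are from RefSeq (GRCm38.p6) and coordinates from GENCODE M21. The fit was tested on simulated data.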

Additional observations from a re-analysis of the deposited data

Results flagged for a closer look

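For 21 members the change in 2MUT against Control differed from the change with 2-HG by the limma contrast over 12 libraries (Benjamini-Hochberg adjusted p under 0.05), where 19.5% of all genes had the more negative and 19.9% the more positive change in 2MUT. The differences are log2 fold changes, 2MUT minus 2-HG, and 20 of them are given. In complex I they were -0.80 for Ndufs4, -0.69 for Ndufv2, -0.57 for Ndufv3, -0.52 for Ndufa6, -0.50 for Ndufb6, -0.39 for Ndufa9 and -0.38 for Ndufb11. In complex II they were -0.69 for Sdhb and -0.56 for Sdhd. In complex III they were -0.82 for Uqcrc2, -0.53 for Uqcrfs1, -0.46 for Uqcrh and -0.46 for Uqcrc1. In complex IV they were -0.78 for Cox7a1 and 1.32 for Cox6c. In complex V they were -0.65 for Atp5b, -0.51 for Atp5k, -0.46 for Atp5c1, -0.44 for Atp5g3 and -0.38 for Atp5a1. The differences of Uqcrh, Atp5k, Ndufb6, Atp5a1, Ndufa9 and Cox6c were each lost when certain single libraries were left out. Uqcrh lost its call without Control replicate 1, 2MUT replicates 2 or 3, any 2-HG(-) library or 2-HG(+) replicates 1 or 2, and Ndufa9 without Control replicate 1, 2MUT replicate 3, 2-HG(-) replicate 2 or 2-HG(+) replicate 2. Groups of 3 libraries were too small for the test of a single outlying sample.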

How the results depend on the processing

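Of the member calls, 10 of 16 lower calls in 2MUT were kept under every alternative that tested the gene (among them Ndufv3, Ndufs4, Ndufa6, Ndufb11, Sdhd, Uqcrc2, Uqcrfs1, Cox7a1 and Atp5g3), as were Uqcrq and Cox7a1 with 2-HG and 14 of the 20 more negative differences. Cox7a1 and Cox6c are not tested with a 10 RPM filter. Members higher in 2MUT, 2 in the report, were 1 with that filter, 1 without the trend, 0 with the unmoderated test (2 at an unadjusted p under 0.05) and 1 to 6 with a library left out. The unmoderated test gave 1021 higher and 1223 lower genes in 2MUT and 1098 and 1139 with 2-HG over all genes. With a library left out these were 1271 to 1926 and 1484 to 1880 in 2MUT, and 1146 to 1745 and 1176 to 1580 with 2-HG. The median change of the members in 2MUT was -0.20 with edgeR and -0.19 with DESeq2, and -0.233 to -0.086 with a library left out. Members lower in 2MUT were 16 with edgeR, 20 with DESeq2 and 12 to 21 with a library left out. Members higher with 2-HG were 2 to 5 with a library left out. Members lower with 2-HG were 0 with the 10 RPM filter (1 at an unadjusted p under 0.05) and 2 with quantile normalization, which added Uqcrh. The 1 member with the more positive change in 2MUT was Cox6c. This count became 0 with limma under the 10 RPM filter, which leaves Cox6c out (2 others at an unadjusted p under 0.05). It was also 0 with log2(RPM + 0.1) (3 at that level) and with the unmoderated test (2), and 0 to 3 with a library left out. No called change of a member in 2MUT or with 2-HG turned sign under any alternative run, whereas 16 members in 2MUT and 22 with 2-HG that did not pass did so under at least 1. The cause was not tested.

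Replicate numbers did not pair the libraries, since same-numbered libraries had correlations of 0.07, 0.03 and 0.03 in their deviations from the group means in Control and 2MUT and of -0.46, -0.16 and 0.06 with 2-HG. Differently numbered libraries of the 2-HG experiment had correlations of -0.41 to 0.48, the highest for 2-HG(-) replicate 2 with 2-HG(+) replicate 1. Whether these libraries shared a batch was not tested. With the replicate number as a block, 1911 genes were higher and 1987 lower in 2MUT and 1217 and 1286 with 2-HG. Members were then 3 higher and 21 lower in 2MUT, 1 higher and 1 lower with 2-HG (Sdhb, Cox5a, Ndufb6 and Atp5b had adjusted p of 0.0503, 0.0539, 0.0697 and 0.134), and 17 had the more negative difference. Depth limits the members under 10 RPM most, 9 of 66 in Control and 2MUT.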
